A study of Homo sapiens with 6 samples.

Results

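The data concern 66 human protein-coding genes for the factors that start and extend protein synthesis, and for the enzymes that modify them, in A375, an established human melanoma cell line. The genes were taken by symbol, as protein-coding genes whose symbols begin with EIF1 to EIF6, EEF1 or EEF2. The kinases of eIF2, 1 subunit of eIF2, antisense genes and pseudogenes were left out. The 66 genes stand among 58523 genes with a transcript in the deposited tables, of which 19885 are protein-coding. Total RNA was sequenced from 3 cultures treated for 24 h with hMGL, an engineered human enzyme that degrades methionine (treated replicates 4, 5 and 6), and from 3 untreated cultures (control replicates 1, 2 and 3). Both groups are the same line in the same serum-containing medium, the sources used here give no dose of hMGL, and there is a single time of treatment. The cultures were taken as independent, so the p-values measure the spread between cultures of 1 line. The comparison asks how the transcript levels of these genes differ between cells exposed to the enzyme and cells left without it.

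Protein synthesis starts when eIF2 delivers the initiator methionyl-tRNA to the small ribosomal subunit, eIF3 holds that subunit ready, and eIF4F brings it to the capped end of an mRNA. eIF5 and eIF5B then complete the choice of the start codon and the joining of the large subunit, after which eEF1A delivers each aminoacyl-tRNA and eEF2 moves the ribosome along. Many mRNAs for ribosomal proteins and translation factors begin with a C followed by a run of pyrimidines, the 5′ terminal oligopyrimidine (TOP) tract, and their translation is known to follow the activity of the kinase mTOR.

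The depth was 50760266 to 53682075 estimated counts in the treated libraries and 53441686 to 59954677 in the control libraries. The lineage genes SOX10 and MITF stood at 52.1 to 60.1 and 12.7 to 14.9 TPM (a level per transcript length) in treated libraries, and at 59.7 to 75.3 and 13.1 to 16.5 TPM in control libraries. S100B, another melanoma marker, stood at 3.48 to 5.56 TPM in treated and 24.8 to 27.6 TPM in control libraries. Its part in the results was not tested. The pigment cell genes PMEL, MLANA, DCT and TYR reached at most 1.36 TPM, so the labelled cell type carried its lineage regulators with little of its pigment program. Markers of leukocytes, endothelium and fibroblasts, and the epithelial gene EPCAM, reached at most 0.776 TPM, while the keratin KRT18 stood at 143.5 to 164.5 TPM in treated and 141.5 to 152.8 TPM in control libraries. In bulk RNA, fewer cells and less RNA per cell cannot be told apart.

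The first bases of some of the transcripts are shown because this tract is the sequence feature by which the genes are grouped further on. RefSeq starts on GRCh38.p14 were held for 53 of the 66 genes, in 70 windows. Each line gives 15 bases before and 15 bases from the annotated first base, 5′ to 3′ on the strand of the gene, and the capitals mark a tract that begins at the first base with C and goes on with at least 4 bases that are each C or T. These are 8 genes that fell in treated cells and have a tract, EEF1B2 among them close to the threshold and with a sign that turned when libraries were scaled by their totals alone:
EEF1A1, chr6:73521018-73521047, minus strand: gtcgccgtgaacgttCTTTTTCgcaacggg
EEF1B2, chr2:206159880-206159909, plus strand: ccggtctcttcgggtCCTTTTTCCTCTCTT
EEF2, chr19:3985449-3985478, minus strand: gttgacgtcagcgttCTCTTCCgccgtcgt
EIF2S3, chrX:24054941-24054970, plus strand: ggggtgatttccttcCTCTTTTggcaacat
EIF3D, chr22:36529152-36529181, minus strand: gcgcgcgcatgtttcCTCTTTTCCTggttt
EIF3F, chr11:7987322-7987351, plus strand: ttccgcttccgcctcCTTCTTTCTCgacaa
EIF3K, chr19:38619173-38619202, plus strand: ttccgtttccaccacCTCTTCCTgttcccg
EIF4B, chr12:53006441-53006470, plus strand: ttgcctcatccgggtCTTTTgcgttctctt
These are 4 genes that rose in treated cells and have none:
EIF1, chr17:41688870-41688899, plus strand: aggcaccgcccctctgccccagtcactgag
EIF2B2, chr14:75002906-75002935, plus strand: gacctcgcccgccccggaagtgcaaactgt
EIF3J, chr15:44537132-44537161, plus strand: cacctccgccgtgctaactcctcgctagct
EIF5, chr14:103334222-103334251, plus strand: gcggcggcgttgttcagtcagagcgagaac
The opposite pairings also occur, and falls without a tract were not rare. Of the 37 genes tested without a tract 18 fell, and of the 13 with one 11 fell. These are a gene that rose with a tract (EIF3M) and a pair out of the 18 that fell without one:
EIF3M, chr11:32583816-32583845, plus strand: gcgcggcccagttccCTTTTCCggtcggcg
EIF4EBP2, chr10:70404130-70404159, plus strand: ctcccgccttcgcccgcttccggtcgtcgt
EEF1G, chr11:62573877-62573906, minus strand: tctcccgggcggcttactttgcggcagcgc
EEF1B2 has a second annotated start without a tract, and EIF5 has a second start that also lacks one. A match to these letters is a description of the annotated start, not of the start used in these cells.

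Most of these genes were lower in treated cells, with a smaller set that was higher. Of the 66 genes, 63 had enough counts for the test, and 53 of them (84.1%) passed an adjusted p of 0.05 in the quasi-likelihood F test of edgeR, 17 higher and 36 lower in treated cells. Over all 22580 genes tested 69.4% passed, 34.9% higher and 34.5% lower, and among protein-coding genes 78.3% passed, 38.0% higher and 40.3% lower. The share that passed was therefore near that of protein-coding genes, while the split between higher and lower was not even. The median log2 fold change, treated over control, was -0.24 for the 63 genes, against -0.02 for all genes tested. On the scale of log2(TPM + 1) with limma, 17 were higher and 20 lower, so that 45.9% of the calls among these genes were higher, beside 57.8% of the calls over all genes. In the count fit these shares were 32.1% and 50.3%. On the TPM scale the genes called lower were 0 for eIF2B, 1 for eIF2 with EIF2A and EIF2D, and 3 for eIF4F. The genes that fell in counts and did not pass there were EIF1AX, EIF2A, EIF2D, EIF2B3, EIF2B4, EIF2B5, EIF3C, EIF3D, EIF3G, EIF4A2, EIF4E, EIF4G1, EIF4G3, EIF4H, EIF4ENIF1 and EEF1B2. The TPM values were compared without further scaling between libraries. A count fit with an offset for effective length, which keeps such scaling, gave 18 higher and 33 lower. In it 3 were lower for eIF2B, 3 for eIF2 with EIF2A and EIF2D, and 6 for eIF4F. Of the genes just named, EIF3C, EIF4A2 and EIF4ENIF1 did not pass as lower with the offset. Folds are relative to the typical gene of each library and do not measure RNA per cell.

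Few of the differences were large. At least a 2-fold difference with an adjusted p under 0.05 in edgeR was reached by 2 genes that rose, EIF1 and EEF1AKMT3, and by 7 that fell, EIF3E, EIF3F, EIF3K, EIF3L, EIF4EBP2, EEF2K and EEF1AKMT1. Over all genes 14.6% were at least 2-fold higher and 12.6% at least 2-fold lower. The treated and control libraries did not overlap for 55 of the 63 genes, 17 higher and 38 lower, where 73.3% of all genes and 81.0% of protein-coding genes do not overlap. In summed CPM (counts relative to the TMM-scaled library size), the 66 genes took 18057 ± 201 CPM in treated libraries and 24429 ± 681 CPM in control libraries (SD, n = 3 each). EIF1AY, EIF4E1B and the readthrough gene EEF1AKMT4-ECE2 had too few counts to be tested. Gene positions in the text are those of GENCODE 29 on GRCh38. The other readthrough gene, EEF1E1-BLOC1S5, was tested and did not pass (log2 fold change 0.75 ± 0.61, SE; edgeR adjusted p = 0.313).

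**Figure D1:**
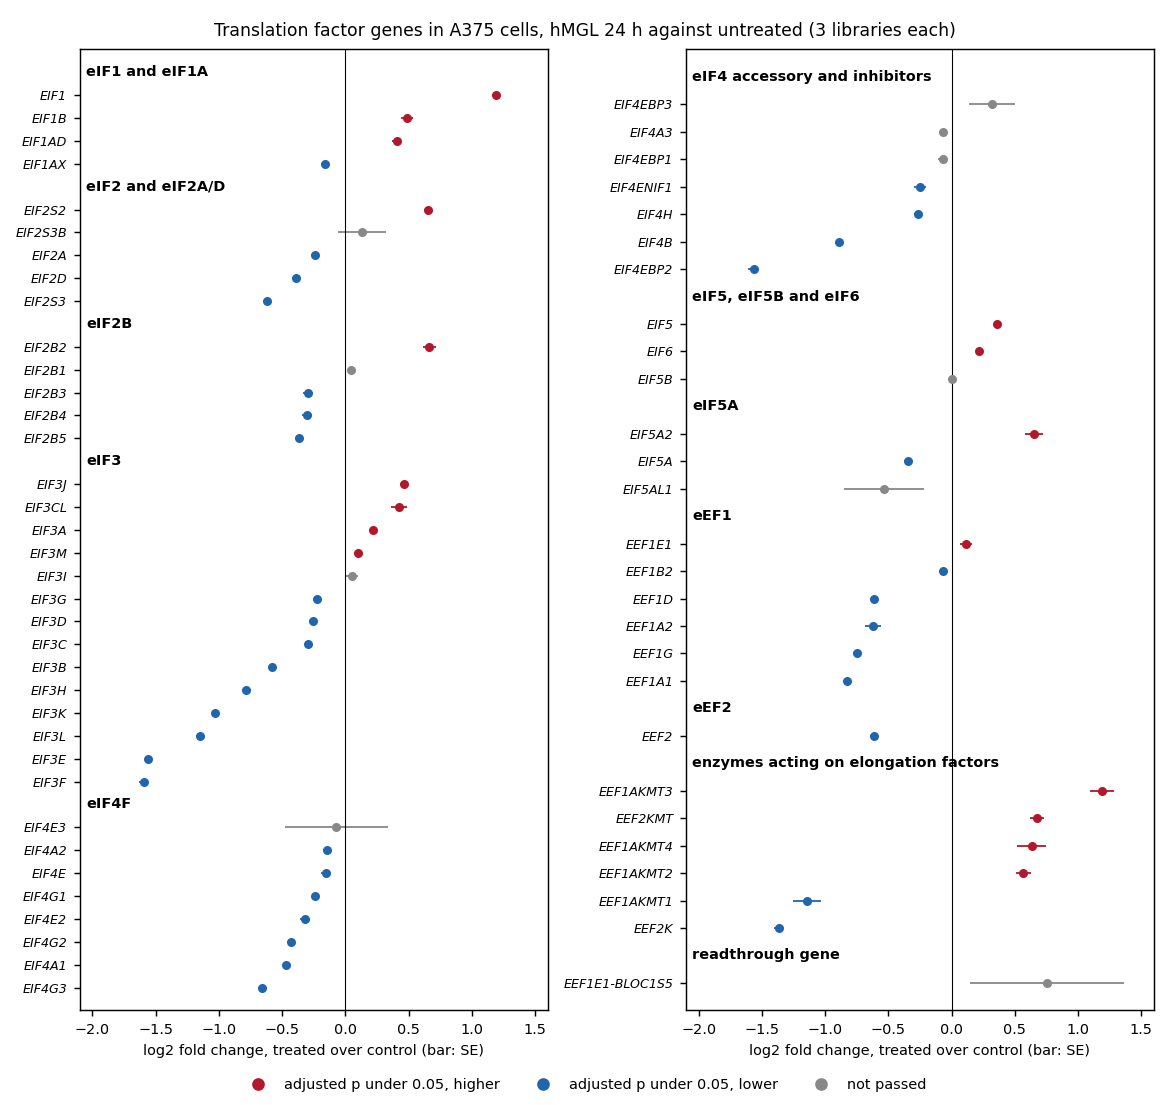
The plot gives the log2 fold change of each of the 63 genes tested, treated over control, on the horizontal axis, grouped by complex, with bars for the standard error of 3 libraries per group. Points in red passed the test as higher, points in blue as lower and points in grey did not pass; EIF1 and EEF1AKMT3 lie at 1.19 and EIF3F at -1.60.

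Of the 4 genes tested in the eIF1 and eIF1A group, which was drawn up by symbol, 3 were higher and EIF1AX was lower. The shares over all protein-coding genes were 38.0% higher and 40.3% lower. EIF1 (chr17:41688885-41692668), which keeps the scanning ribosome open and guards the choice of start codon, had 313, 327 and 314 CPM in treated libraries, against 143, 134 and 141 CPM in control libraries. It was 2.28-fold higher (log2 fold change 1.19 ± 0.032, SE; edgeR adjusted p = 1.03e-15), and its groups lay far apart. EIF1B, its close paralog, and EIF1AD, which carries an eIF1A-like domain, were higher by 0.49 ± 0.047 and 0.40 ± 0.037 log2 units (SE). EIF1AX, the eIF1A that binds beside eIF1 on the small subunit, had 143, 144 and 148 CPM in treated libraries, against 166, 155 and 166 CPM in control libraries. It was slightly lower (log2 fold change -0.16 ± 0.032, SE; edgeR adjusted p = 2.46e-04), with no overlap between the groups. Within the summed TPM of EIF1 and EIF1B, EIF1 took 88.9%, 89.5% and 89.9% in treated libraries and 83.0%, 83.4% and 83.5% in control libraries. An exact two-sided permutation test gave p = 0.1, the smallest that 3 against 3 libraries allow, and 0.125 after Benjamini-Hochberg adjustment over the 25 paralog shares tested.

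EIF2S2 and EIF2S3, which encode subunits of eIF2, moved in opposite directions. EIF2S2, the beta subunit, had 553, 568 and 569.8 CPM in treated libraries, against 366, 349 and 361 CPM in control libraries, 1.57-fold higher (log2 fold change 0.65 ± 0.028, SE; edgeR adjusted p = 6.78e-13). EIF2S3, the gamma subunit that binds GTP and the initiator tRNA, had 326, 336 and 335 CPM in treated libraries, against 519, 499 and 513 CPM in control libraries, and fell by 34.9% (log2 fold change -0.62 ± 0.028, SE; edgeR adjusted p = 1.002e-12). Neither gene had overlapping groups, and as levels per length EIF2S2 stood at 199 ± 10.3 TPM in treated and 118 ± 7.08 TPM in control libraries, and EIF2S3 at 142 ± 8.49 TPM in treated and 188 ± 9.54 TPM in control libraries. Summed over the 5 genes of this group, the level was 1097 ± 17.0 CPM in treated libraries and 1113 ± 23.9 CPM in control libraries. EIF2A and EIF2D, which can deliver tRNA outside the usual eIF2 route, fell by 0.24 and 0.39 on the log2 scale, the second by 0.18 with an offset for effective length. EIF2S3B, a near-identical copy of EIF2S3, held 1.11 ± 0.0873 CPM in treated and 1.02 ± 0.0820 CPM in control libraries and did not pass (log2 fold change 0.13 ± 0.19, SE; edgeR adjusted p = 0.555). Its counts could not be told from shared reads, and with the copies summed EIF2S3 stood at -0.62.

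eIF2B, the complex that reloads eIF2 with GTP and that phosphorylated eIF2 inhibits, showed the same kind of split. EIF2B2, a regulatory subunit (beta), had 92.5, 95.7 and 100.4 CPM in treated libraries, against 65.7, 57.9 and 58.6 CPM in control libraries. It was 1.58-fold higher with no overlap (log2 fold change 0.66 ± 0.05, SE; edgeR adjusted p = 1.14e-07). Transcripts annotated protein_coding held only 7.97% to 9.33% of its TPM in treated and 9.91% to 10.1% in control libraries. On these alone EIF2B2 was at 0.83. EIF2B5, the catalytic epsilon subunit, had 56.7, 56.9 and 55.5 CPM in treated libraries, against 73.7, 72.7 and 71.6 CPM in control libraries, and fell by 22.5% (log2 fold change -0.37 ± 0.034, SE; edgeR adjusted p = 2.20e-08). EIF2B4, the delta subunit, had 46.2, 44.8 and 45.4 CPM in treated libraries, against 58.7, 53.4 and 56.2 CPM in control libraries, and also fell, by 19.0% (log2 fold change -0.30 ± 0.04, SE; edgeR adjusted p = 2.67e-06). The groups did not overlap for either. EIF2B3, the gamma subunit that pairs with epsilon, fell by 0.30 on the log2 scale, and EIF2B1, the alpha subunit, did not pass (log2 fold change 0.04 ± 0.03, SE; edgeR adjusted p = 0.216). EIF2B1 passed as higher when treated replicate 4 or treated replicate 5 was left out, at 0.07 and 0.09, and with library totals alone, at 0.12.

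eIF3, the largest initiation factor, held several of the largest falls. Of its 14 genes, 4 were higher, 9 were lower and 1 did not pass, with a median of -0.28. Of all protein-coding genes tested, 38.0% were higher and 40.3% lower. EIF3F (chr11:7970251-8001862), a subunit with an MPN domain, had 40.4, 42.2 and 41.6 CPM in treated libraries, against 128, 122 and 126 CPM in control libraries, 3.02-fold lower (log2 fold change -1.60 ± 0.034, SE; edgeR adjusted p = 6.01e-17). EIF3E (chr8:108201216-108435333), a subunit with a PCI domain, had 138, 139 and 141 CPM in treated libraries, against 422, 397 and 411 CPM in control libraries, 2.94-fold lower (log2 fold change -1.56 ± 0.03, SE; edgeR adjusted p = 1.43e-17). These differences were many times the spread between libraries, and no treated library came near a control library. EIF3L (chr22:37848868-37889407) had 160.1, 159 and 159 CPM in treated libraries, against 359.7, 345 and 358 CPM in control libraries, 2.22-fold lower (log2 fold change -1.15 ± 0.028, SE; edgeR adjusted p = 2.93e-16). EIF3K (chr19:38619082-38636955), which pairs with EIF3L at the edge of the complex, had 90.6, 91.0 and 90.6 CPM in treated libraries, against 186, 183 and 187 CPM in control libraries, 2.04-fold lower (log2 fold change -1.03 ± 0.029, SE; edgeR adjusted p = 1.71e-15). Both again had groups far apart.

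EIF3H, the other subunit with an MPN domain, fell by 0.78 on the log2 scale (143 ± 4.78 CPM in treated and 245 ± 9.30 CPM in control libraries). EIF3B, a scaffold subunit, fell by 0.58, and EIF3C, EIF3D (able to bind the cap of some mRNAs) and EIF3G fell by 0.29, 0.26 and 0.22. On log2(TPM + 1) these 3 did not pass, at -0.05, -0.10 and -0.10. The subunits that were higher were EIF3J, a loosely bound subunit, EIF3A, the largest subunit, EIF3M and EIF3CL. EIF3J had 194, 195 and 192 CPM in treated libraries, against 141, 135 and 145 CPM in control libraries, 1.38-fold higher with no overlap (log2 fold change 0.47 ± 0.032, SE; edgeR adjusted p = 3.40e-10). EIF3A and EIF3M were higher by 0.22 and 0.10, the second not past the test on protein_coding transcripts alone (0.09), and EIF3I did not pass (log2 fold change 0.05 ± 0.047, SE; edgeR adjusted p = 0.336). EIF3I passed as higher without treated replicate 4 and with library totals alone, at 0.13 in both. EIF3CL is a near copy of EIF3C and was 0.43 ± 0.063 log2 units (SE) higher, but how reads were shared between the copies is not known. With the copies summed, EIF3C stood at -0.27, and with an offset for effective length it did not pass, at -0.15. The summed level of eIF3 was 4154 ± 35.02 CPM in treated libraries and 5108 ± 140 CPM in control libraries (SD, n = 3 each), a difference of -18.7%.

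EIF3F rests on part of its transcripts. Of the 9 transcripts GENCODE 29 gives it, 1 coding transcript is absent from the tables by its identifier, and most of its level sat on EIF3F-205, annotated nonsense_mediated_decay, at 27.3 ± 2.15 TPM in treated libraries and 73.3 ± 3.81 TPM in control libraries. On transcripts annotated protein_coding alone it stood at -0.86.

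**Figure D2:**
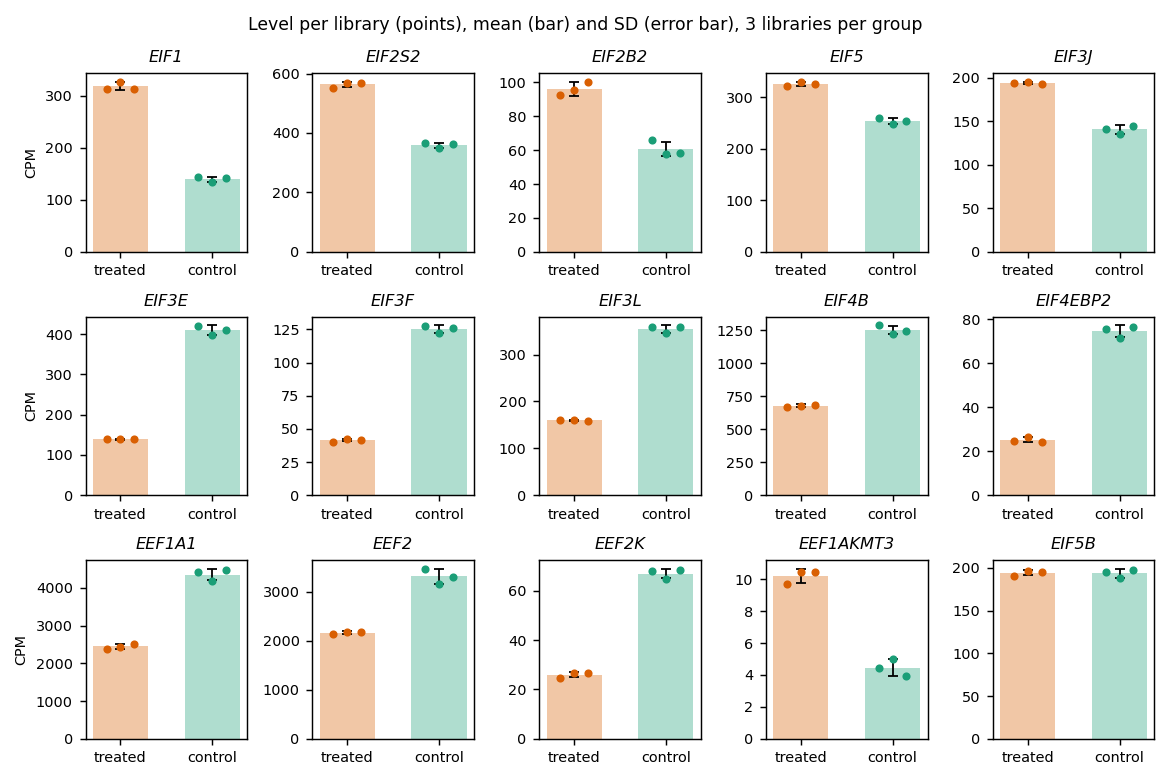
Each panel plots the CPM of a gene in the 3 treated and the 3 control libraries as points, with the mean as a bar and the SD as an error bar, on a linear axis from 0. EIF1 stands at 313 to 327 CPM in treated and 134 to 143 CPM in control libraries, EIF3E at 138.5 to 141 CPM in treated and 397 to 422 CPM in control libraries, and EIF5B overlaps between the groups.

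The genes grouped with eIF4F, which binds the cap and opens the leader of the mRNA, were mostly lower. Of the 8 tested 7 fell, where 34.5% of all genes and 40.3% of protein-coding genes were lower. Among the 7 were EIF4A2, whose sign depended on the counting of transcripts, and EIF4E2 and EIF4G2, relatives of eIF4F genes described below. The other, EIF4E3, held 0.210 ± 0.0678 CPM in treated and 0.219 ± 0.0339 CPM in control libraries and did not pass (log2 fold change -0.07 ± 0.41, SE, edgeR adjusted p = 0.886). EIF4A1, the main helicase, had 1258, 1262 and 1275 CPM in treated libraries, against 1775, 1697 and 1778 CPM in control libraries, and fell by 27.7% (log2 fold change -0.47 ± 0.028, SE; edgeR adjusted p = 5.75e-11). EIF4G1, the scaffold, had 829.8, 832 and 836 CPM in treated libraries, against 992, 969.6 and 989.7 CPM in control libraries, and fell by 15.4% (log2 fold change -0.24 ± 0.026, SE; edgeR adjusted p = 2.03e-07). Both had no overlap, and the fall of EIF4A1 was the larger. EIF4E, the cap-binding protein, had 68.9, 66.8 and 67.1 CPM in treated libraries, against 76.7, 75.2 and 74.3 CPM in control libraries, and fell by 10.3% (log2 fold change -0.16 ± 0.033, SE; edgeR adjusted p = 4.34e-04). EIF4E did not pass with library totals alone, at -0.08 (edgeR adjusted p = 0.0518), or on log2(TPM + 1), at -0.03, and EIF4G1 did not pass on log2(TPM + 1), at -0.10. EIF4E2, which binds the cap without joining eIF4F, and EIF4G2, a scaffold that lacks the site for eIF4E, fell by 0.32 and 0.43 on the log2 scale. Of the joint counts of EIF4E and its pseudogenes, 1.62% to 6.49% lay on the pseudogenes.

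EIF4A2 and EIF4G3 depended on how transcripts were counted. EIF4A2, the second helicase, had 158, 156 and 156 CPM in treated libraries, against 169, 173 and 178 CPM in control libraries, and fell by 9.71% (log2 fold change -0.15 ± 0.03, SE; edgeR adjusted p = 2.65e-04). In TPM it was not lower, at 134 ± 8.99 TPM in treated and 117 ± 7.69 TPM in control libraries, and with an offset for effective transcript length it passed as higher, at 0.09 (edgeR adjusted p = 0.0297). On protein_coding transcripts only it was far lower, at -1.32 (edgeR adjusted p = 3.33e-05). Over all transcripts, its share of the summed TPM of both helicase genes was 10.8%, 11.0% and 11.0% in treated libraries, against 7.27%, 7.88% and 7.32% in control libraries (exact permutation p = 0.1, adjusted 0.125). This rise in share did not hold for the coding forms, as EIF4A1 was at -0.48 on protein_coding transcripts only and EIF4A2 at -1.32. EIF4G3, the third scaffold gene, had 93.9, 92.2 and 85.7 CPM in treated libraries, against 141, 139.9 and 147 CPM in control libraries, and fell by 36.5% (log2 fold change -0.66 ± 0.037, SE; edgeR adjusted p = 2.46e-11). In TPM it stood at 20.2 ± 2.91 TPM in treated and 20.9 ± 1.303 TPM in control libraries, a limma difference of -0.05 that did not pass (adjusted p = 0.682). It was at -0.97 on protein_coding transcripts only and at -0.16 with the offset.

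Among the partners and inhibitors of eIF4F, none was higher past the test. EIF4B (chr12:53006158-53042209), which stimulates the helicase, had 666, 679 and 686 CPM in treated libraries, against 1288, 1221 and 1247 CPM in control libraries, and fell by 45.9% (log2 fold change -0.89 ± 0.029, SE; edgeR adjusted p = 1.11e-14). EIF4EBP2 (chr10:70404379-70428618), which binds EIF4E and is released when mTOR phosphorylates it, had 24.8, 26.5 and 24.2 CPM in treated libraries, against 75.7, 71.3 and 76.4 CPM in control libraries, 2.96-fold lower (log2 fold change -1.56 ± 0.043, SE; edgeR adjusted p = 1.41e-15). The groups were far apart for both genes. EIF4EBP1, the best known inhibitor of this family, had 112, 115 and 114 CPM in treated libraries, against 126, 116 and 117 CPM in control libraries, a small difference that did not pass although the groups did not overlap (log2 fold change -0.07 ± 0.035, SE; edgeR adjusted p = 0.0829). Leaving out control replicate 2, the lowest of the control libraries, moved EIF4EBP1 past the threshold at -0.09, and the same held for EIF4A3 at -0.09. With a minimum count of 50 on all libraries both genes also passed as lower, each at -0.08.

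As levels per length, EIF4EBP2 was a minor part of the family: it took 4.20%, 4.47% and 4.14% of the summed TPM of the 3 inhibitor genes in treated libraries, against 10.5%, 11.0% and 11.6% in control libraries. In estimated counts, which also follow transcript length, the shares were 18.0%, 18.6% and 17.3% in treated libraries, against 37.4%, 37.9% and 39.4% in control libraries. The exact permutation p was 0.1, the smallest possible, in both units, and 0.125 after adjustment in TPM. EIF4EBP3 held 1.25 ± 0.0926 CPM in treated and 1.00 ± 0.0208 CPM in control libraries and did not pass (log2 fold change 0.32 ± 0.18, SE; edgeR adjusted p = 0.133). EIF4A3, a helicase of the exon junction complex rather than of eIF4F, had 95.1, 94.6 and 92.8 CPM in treated libraries, against 101, 95.7 and 99.9 CPM in control libraries, and did not pass (log2 fold change -0.07 ± 0.032, SE; edgeR adjusted p = 0.0657). EIF4H, a cofactor of the helicase, and EIF4ENIF1, which carries EIF4E into the nucleus, fell by 0.27 and 0.25 on the log2 scale. EIF4ENIF1 was not lower with an offset for effective length, at 0.01.

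EIF5 and EIF5B, of the last steps of initiation, and EIF6, which was grouped with them, were higher or did not pass. EIF5, which makes eIF2 hydrolyse its GTP once a start codon is found, had 323, 330.3 and 326 CPM in treated libraries, against 261, 248 and 254 CPM in control libraries, 1.28-fold higher (log2 fold change 0.36 ± 0.028, SE; edgeR adjusted p = 2.67e-09). EIF6, which keeps the large subunit from joining too early, was higher by 0.22 ± 0.03 log2 units (SE), and by 0.14 on protein_coding transcripts only. EIF5B, the GTPase that joins the subunits, had 191, 197 and 195 CPM in treated libraries, against 195, 187 and 198 CPM in control libraries, so the groups overlapped and it did not pass (log2 fold change 0.01 ± 0.03, SE; edgeR adjusted p = 0.875). With library totals alone it passed as higher, at 0.08 (edgeR adjusted p = 0.00385), and its sign turned with a minimum count of 50 and without control replicate 2. The summed level of the 3 genes was 738 ± 5.18 CPM in treated libraries and 634 ± 14.3 CPM in control libraries.

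eIF5A, the factor that carries hypusine and helps ribosomes past difficult stretches, changed in opposite ways in its 2 main genes. EIF5A had 489.9, 516 and 518 CPM in treated libraries, against 666, 625 and 644 CPM in control libraries, and fell by 21.3% (log2 fold change -0.34 ± 0.031, SE; edgeR adjusted p = 2.01e-08). EIF5A2 had 13.9, 14.1 and 15.8 CPM in treated libraries, against 8.91, 9.73 and 9.29 CPM in control libraries, 1.57-fold higher (log2 fold change 0.65 ± 0.07, SE; edgeR adjusted p = 2.06e-07), and was at 0.30 with an offset for effective length. Neither had overlapping groups, and EIF5A2 remained the minor gene, with 4.12% ± 0.454 of the summed TPM in treated libraries and 2.65% ± 0.123 in control libraries (SD, n = 3 each; exact permutation p = 0.1, adjusted 0.125). EIF5AL1, a near copy of EIF5A, held 0.296 ± 0.0444 CPM in treated and 0.430 ± 0.0795 CPM in control libraries and did not pass (log2 fold change -0.53 ± 0.32, SE; edgeR adjusted p = 0.144).

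The elongation factors themselves were lower. EEF1A1 (chr6:73515750-73523797), the main carrier of aminoacyl-tRNA, had 2389, 2435 and 2519 CPM in treated libraries, against 4406, 4177 and 4467 CPM in control libraries, and fell by 43.7% (log2 fold change -0.83 ± 0.033, SE; edgeR adjusted p = 1.55e-13). On protein_coding transcripts only, which held less than 1% of its TPM, it was at -0.45. EEF2 (chr19:3976056-3985469), the translocase, had 2141, 2186 and 2185 CPM in treated libraries, against 3472, 3169 and 3313 CPM in control libraries, and fell by 34.6% (log2 fold change -0.61 ± 0.033, SE; edgeR adjusted p = 1.24e-11). No treated library reached any control library for either gene. EEF1G and EEF1D, subunits of the exchange factor that recharges eEF1A with GTP, fell by 0.75 and 0.62 on the log2 scale (1037 ± 11.6 CPM in treated and 1742 ± 49.6 CPM in control libraries for EEF1G). EEF1A2, the form of muscle and nerve, fell by 0.62 and made up 0.604% of the summed TPM of both eEF1A genes in treated libraries, against 0.510% in control libraries (exact permutation p = 0.1, adjusted 0.125).

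EEF1B2 and EEF1E1 lay close to the threshold. EEF1B2, a catalytic subunit of the exchange factor, fell by only 0.07 (322 ± 2.79 CPM in treated and 338 ± 10.0 CPM in control libraries; edgeR adjusted p = 0.0467), and its sign turned to 0.01 when libraries were scaled by their totals alone. Without each of 5 of the 6 libraries in turn, all but control replicate 2, it did not pass, with differences of -0.06 to -0.03. It passed as lower with an offset for effective length, at -0.14 (edgeR adjusted p = 0.00369). On protein_coding transcripts only it also passed, at -0.13 (edgeR adjusted p = 2.29e-04). EEF1E1, a scaffold of the multisynthetase complex rather than a factor of elongation, had 24.8, 26.1 and 27.2 CPM in treated libraries, against 25.0, 23.8 and 23.3 CPM in control libraries, and passed as higher with overlapping groups (log2 fold change 0.12 ± 0.048, SE; edgeR adjusted p = 0.0407). It did not pass without control replicate 2, control replicate 3 or treated replicate 6, at 0.11, 0.09 and 0.11, nor with DESeq2, at 0.12 (adjusted p = 0.0979). The summed level of the eEF1 genes was 4185 ± 72.2 CPM in treated libraries and 6992 ± 219 CPM in control libraries, a difference of -40.2%. Nearly all of the EEF1A1 level lay on EEF1A1-206, annotated retained_intron, at 1193 ± 65.2 TPM in treated libraries and 1991 ± 69.0 TPM in control libraries, and whether these reads belong to that transcript was not tested.

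The enzymes that act on the elongation factors moved strongly in both directions. EEF2K (chr16:22206282-22288732), the kinase that halts eEF2 by phosphorylation, had 24.8, 26.8 and 26.6 CPM in treated libraries, against 68.0, 64.8 and 68.3 CPM in control libraries, 2.57-fold lower (log2 fold change -1.36 ± 0.041, SE; edgeR adjusted p = 4.81e-15). EEF1AKMT3 (chr12:57771492-57782541), a lysine methyltransferase of eEF1A, had 9.68, 10.5 and 10.5 CPM in treated libraries, against 4.44, 5.02 and 3.94 CPM in control libraries, 2.28-fold higher (log2 fold change 1.19 ± 0.095, SE; edgeR adjusted p = 3.14e-09). EEF2KMT, the lysine methyltransferase of eEF2, had 23.1, 23.3 and 24.6 CPM in treated libraries, against 15.4, 15.2 and 13.9 CPM in control libraries, 1.59-fold higher (log2 fold change 0.67 ± 0.055, SE; edgeR adjusted p = 5.05e-09). EEF2KMT was at 0.23 on protein_coding transcripts only and at 1.05 with the offset for effective length. All 3 had groups without overlap. EEF1AKMT2 and EEF1AKMT4 were higher by 0.57 and 0.63, the first by 0.90 on protein_coding transcripts only. EEF1AKMT1 (chr13:20728731-20773958) had 2.43, 2.35 and 2.89 CPM in treated libraries, against 5.81, 5.53 and 5.57 CPM in control libraries, 2.21-fold lower (log2 fold change -1.14 ± 0.11, SE; edgeR adjusted p = 5.89e-08). These methyltransferases use S-adenosylmethionine, which cells make from methionine, as their methyl donor.

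The genes long described as TOP mRNAs were all on the lower side. Of the 11 on a list from general knowledge (EEF1A1, EEF1B2, EEF1D, EEF1G, EEF2, EIF2S3, EIF3E, EIF3F, EIF3H, EIF3L and EIF4B), 11 fell, with a median log2 fold change of -0.78; EEF1B2 among them turned to 0.01 with library totals alone. The 52 other genes tested counted 17 higher, 25 lower and 10 not passed, with a median of -0.11. For comparison, 34.5% of all genes and 40.3% of protein-coding genes were lower. The list was chosen with earlier results of these data known, and its counts are given as a description.

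Grouped by sequence, the genes with a tract had a lower median than those without one. A tract stood at an annotated start of 13 of the 50 genes that were tested and have a RefSeq window, and 11 of these fell (EEF1B2 and EIF4A2 among them, each with a sign that turned under another scaling, and EIF2A, EIF2D and EIF3D, which like them did not pass as lower on log2(TPM + 1)), EIF3M rose by 0.10 and EIF2S3B did not pass, with a median of -0.39. The 37 genes with no tract counted 11 higher, 18 lower and 8 not passed, with a median of -0.16. Beyond the list of TOP mRNAs, the tract marked EIF3K, EIF3D, EIF2A, EIF2D and EIF4A2 among the genes that fell, while EEF1G, which is on the list, has none at its RefSeq start. EEF1D, EIF3E, EIF3H and EIF3L, also on the list, have no RefSeq window here and could not be checked. Also without a window were EEF1A2, EEF1AKMT1 and EIF3G, which fell, EEF1AKMT3, EEF2KMT, EIF2S2, EIF3A and EIF3CL, which rose, and EIF4EBP1, which did not pass. A tract was found in 18.6% of the windows of these genes and in 4.07% of all 35116 windows of the table, read on the strand of the gene only. Among all protein-coding genes tested, the 869 with a tract counted 254 higher and 459 lower (median -0.21), the 809 of them that are neither ribosomal protein genes nor among these factors 252 higher and 403 lower (median -0.17), and the 11314 without one 4451 higher and 4509 lower (median -0.02).

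**Figure D3:**
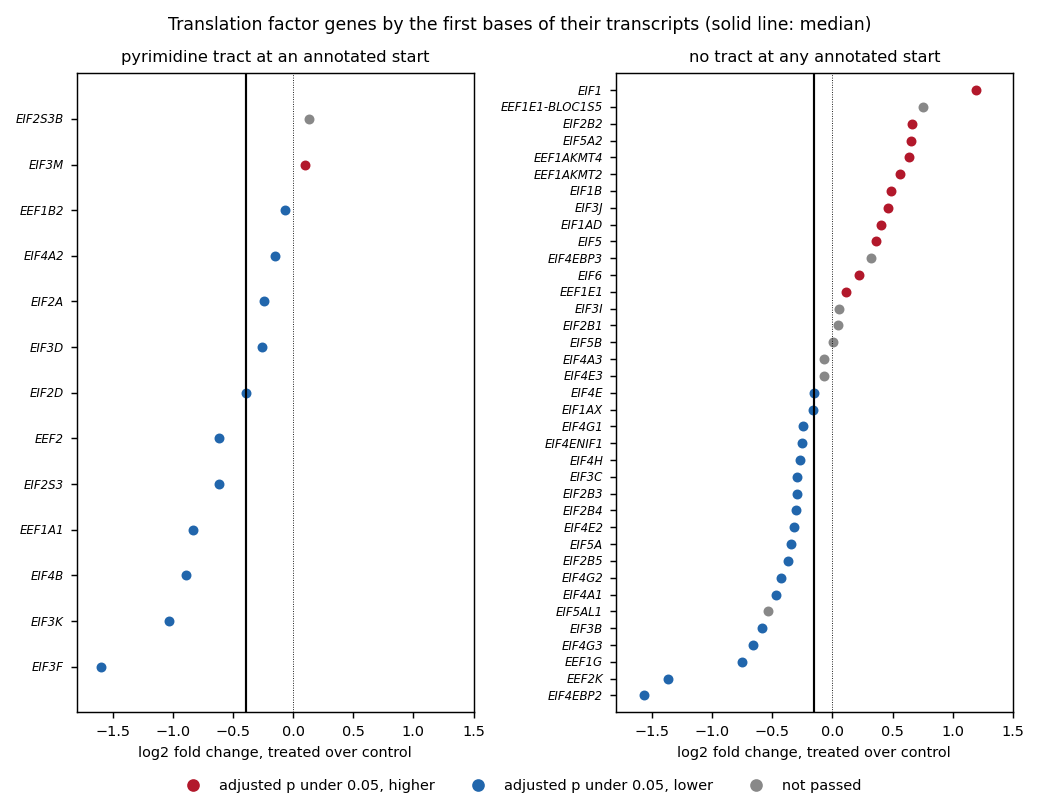
Both panels plot the log2 fold change of each gene, treated over control, for the 13 genes with a pyrimidine tract at an annotated start (left) and the 37 genes without one (right), each sorted from high to low, with the median as a solid line and no change as a dotted line. The medians are -0.39 with a tract and -0.16 without, and EIF3M is the gene with a tract that passed as higher.

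The tables are per transcript, which allows transcripts annotated protein_coding to be set against all others of the same gene (retained introns, targets of nonsense-mediated decay and other forms not annotated as coding). Of 51 genes with enough of both classes, 18 had a lower coding to noncoding ratio in treated cells, 3 had a higher one (EEF1A1, EIF3A and EIF3F) and 30 did not pass in limma. That is 41.2% past the threshold, beside 24.4% of the 7765 genes tested, of which 15.3% were lower and 9.13% higher. The median log2 difference of the ratio was -0.18 for the 51 genes and -0.05 for all genes tested. Some genes whose ratio did not pass lay mostly on the other transcripts in every library. Their coding share was 18.9% to 22.0% in EIF3M, 27.2% to 29.1% in EIF3L, 27.7% to 31.7% in EIF5 and 29.3% to 31.6% in EIF2B5.

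EIF4G3 had the largest difference in ratio, -2.63 ± 0.13 log2 units (SE; limma adjusted p = 6.73e-05). Its coding transcripts made up 50.8%, 51.7% and 50.6% of its TPM in treated libraries, against 88.4%, 87.0% and 89.5% in control libraries. EIF4G3-213, a transcript annotated processed_transcript, stood at 9.89, 7.90 and 8.28 TPM in treated libraries, against 1.39, 1.70 and 1.25 TPM in control libraries, so this form was higher while the coding forms were lower.

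EIF3E showed the same kind of difference, with a log2 difference of the ratio of -2.55 ± 0.22 (SE; limma adjusted p = 5.10e-04). Its coding transcripts summed to 119, 114 and 108 TPM in treated libraries, against 425, 406 and 365 TPM in control libraries. EIF3E-215, annotated nonsense_mediated_decay, stood at 36.1, 25.3 and 31.8 TPM in treated libraries, against 17.2, 12.6 and 20.8 TPM in control libraries. The fall of EIF3E was thus a fall of its coding forms, and with decay targets counted as coding the ratio no longer passed, at -0.36.

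EIF4A2 lay mostly on transcripts not annotated protein_coding in both groups. Its coding share was 9.004%, 9.28% and 7.49% in treated libraries, against 24.1%, 20.5% and 25.6% in control libraries, a log2 difference of the ratio of -1.66 ± 0.14 (SE; limma adjusted p = 5.13e-04). EIF4A2-201, a coding transcript, was listed at 0 in all 3 treated libraries and stood at 9.48, 15.7 and 8.17 TPM in control libraries. EIF4A2-223 (retained_intron) and EIF4A2-202 (nonsense_mediated_decay) were on the other side, at 56.0 ± 3.24 and 34.4 ± 3.72 TPM in treated libraries and 33.1 ± 3.83 and 17.0 ± 1.82 TPM in control libraries. With decay targets counted as coding the ratio turned to 0.31 and did not pass.

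EIF3K and EEF2KMT completed the 5 genes with the largest differences among those that passed. The coding share of EIF3K was 88.8%, 89.6% and 89.6% in treated libraries, against 94.8%, 94.9% and 96.1% in control libraries, a log2 difference of the ratio of -1.26 ± 0.16 (SE; limma adjusted p = 0.00197). EEF2KMT was 31.1%, 29.6% and 34.8% coding in treated libraries, against 58.2%, 54.5% and 51.8% in control libraries, a difference of -1.25 ± 0.14 (SE; limma adjusted p = 0.00136). The rise of EEF2KMT in gene counts lay mainly in its other transcripts, which summed to 8.94, 8.17 and 7.46 TPM in treated libraries, against 2.31, 2.66 and 2.34 TPM in control libraries. The other 13 genes with a lower ratio ranged from -1.14 in EEF1D to -0.59 in EIF4ENIF1, and the 3 with a higher ratio were EIF3F at 0.90, EIF3A at 0.45 and EEF1A1 at 0.44. Each of these 3 rested on a class that was small in every library. The coding share was 1.39% to 3.22% in EIF3F, 0.653% to 0.942% in EEF1A1 and 99.5% to 99.8% in EIF3A. In EEF1D it was 97.5% to 98.2% in treated and 98.9% to 99.2% in control libraries, a small shift in share. Other genes called lower also shifted little in share. EIF5A was 98.3% to 98.5% coding in treated and 99.33% to 99.35% in control libraries, and EIF2B1 96.1% to 97.1% and 98.1% to 99.0%. EIF4E2 was 93.2% to 95.7% coding in treated and 97.2% to 98.6% in control libraries, and EIF4G1 93.7% to 95.4% and 96.3% to 96.4%. How reads were divided between transcripts that share exons was estimated upstream, and its error is not in these tables.

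**Figure D4:**
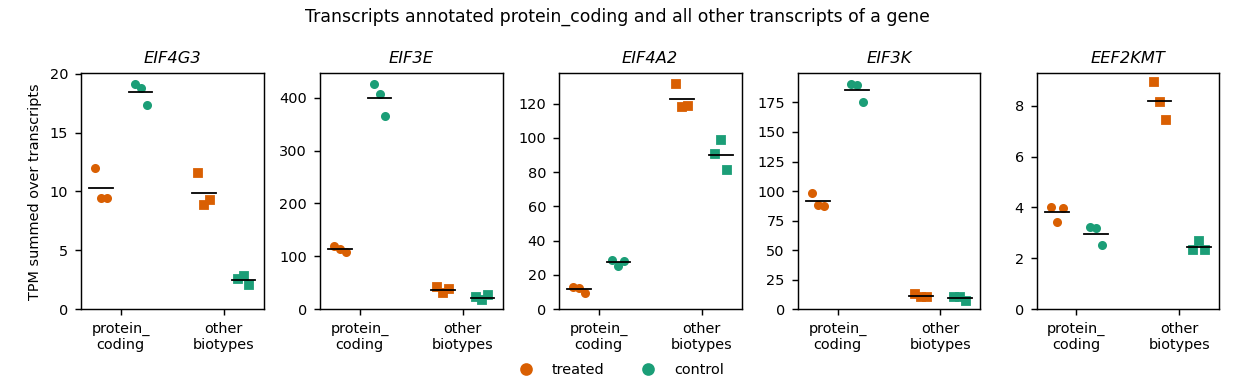
Each panel plots, for a gene, the TPM summed over transcripts annotated protein_coding (circles) and over all other transcripts (squares) in the treated and the control libraries, with the mean as a line, on a linear axis from 0. In EIF3E the coding sum is 108 to 119 TPM in treated and 365 to 425 TPM in control libraries, while in EIF4G3 and EEF2KMT the other transcripts are higher in treated libraries.

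The other genes of translation, taken as 51 genes by role, counted more higher than lower. Of these, 27 were higher, 15 lower and 9 did not pass in edgeR, with a median log2 fold change of 0.21, beside the same 34.9% higher and 34.5% lower over all genes. Termination and ribosome rescue counted 5 higher of 6, with none lower, led by GSPT2 at 1.90 and PELO at 1.48; GSPT2 may share reads with its near copy GSPT1, which did not pass at 0.00. The 9 mitochondrial translation factors counted 7 higher and none lower, among them MTIF2 at 1.09 and MTIF3 at 0.82, both initiation factors of that compartment. The enzymes that build hypusine on eIF5A and diphthamide on eEF2 counted 6 higher of 9, with DPH3 at 1.03 and DOHH, the hydroxylase of hypusine, at 0.95, and 1 lower, DHPS, at -0.11 (0.02 on the log2(TPM + 1) scale). METTL13, a methyltransferase of the start of eEF1A, was higher at 0.57.

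Among the poly(A) binding proteins and the cap regulators more genes were lower than higher. The counts of these short lists stand beside 34.9% higher and 34.5% lower over all genes. Of 5 genes for poly(A) binding and its regulators, 3 were lower and none higher, with PABPC1 at -0.91 and PAIP2 at -0.56. Of 12 cap and scanning regulators, 4 were higher and 7 lower; CYFIP1 and PDCD4, which restrain EIF4E and the helicase, fell by 1.29 and 1.01, and DENR and MCTS2, which act in reinitiation, were higher at 0.31 and 0.94. MCTS2 is a near copy of MCTS1, which fell by 0.28, so reads may be shared between them. The kinases that signal to these factors counted 3 higher and 3 lower of 7, with RPS6KB1 and MKNK2 higher at 0.36 and 0.24, MKNK1 at -0.55 and RPTOR at -0.27 (0.03 on the log2(TPM + 1) scale). Of the selenocysteine factors, SECISBP2 was higher at 0.62 and EEFSEC, the special elongation factor, fell by 1.00.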

How the data were processed

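Total RNA of 3 treated and 3 control A375 cultures was sequenced by Illumina, and a transcript table was deposited per library. Per the file headers, the deposited tables hold estimated counts for each transcript, with fractions and without any scaling across libraries, and TPM, which the columns relate to effective length inside each library. Versions kallisto 0.45.0 and DESeq2 1.30.0 are listed in the submitters' processing notes with no role, and the index release and genome build are not given in the sources used here. Of 244939 transcripts, 203436 were matched to GENCODE 29 (GRCh38) by identifier and summed to genes. The remaining 41503 held between 4.86% and 5.13% of each library's counts and were left out, so a gene level can be partial; 8 of the 66 genes have GENCODE 29 transcripts absent from the tables. Libraries held 50760266 to 59954677 estimated counts. The common biological coefficient of variation between libraries was 0.074, and how surely reads were assigned among transcripts is not recorded.

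Gene sums were rounded, genes with low counts removed with filterByExpr (minimum count 10, minimum total 15), libraries scaled by TMM, and groups compared with the robust quasi-likelihood F test of edgeR 4.0.16 (R 4.3.3; two-sided), with Benjamini-Hochberg adjustment over all genes tested and a threshold of 0.05. The coding to noncoding ratio was tested with limma 3.58.1 on log2((coding TPM + 0.5)/(other TPM + 0.5)), over protein-coding genes that averaged at least 0.5 TPM in both classes. Shares of paralogs were compared by exact permutation. The scripts were tested on simulated data. Alternatives were DESeq2 1.42.0, library totals, other count filters, limma on TPM, an offset for effective length, protein_coding transcripts only, a minimum change of 1.5-fold, summed copies, and each library left out.

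Values per library are given for genes at least 2-fold different and of at least 5 CPM, for the highest and lowest of each complex of at least 10 CPM, and for 13 genes fixed by name (among them EEF1A1, EEF2, EEF2K, EIF4E, EIF4G1, EIF4A1, EIF4EBP1, EIF5A, EIF5 and EIF2B4). Values per library of EIF4B and EEF1AKMT1, and the single transcripts, fall outside this rule and were added after their values were seen. From each list of related genes up to 2 that rose and 2 that fell are named, those with the lowest adjusted p, along with GSPT1 and MCTS1. The genes and lists were chosen with earlier results of these data known.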

Additional observations from a re-analysis of the deposited data

How the results depend on the processing

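No paired analysis was possible because the groups share no replicate number. The counts of 17 higher and 36 lower stood within 1.5 times under every alternative run except limma on TPM and the 1.5-fold minimum. With limma on log2(TPM + 1) or log2(TPM + 0.1) 20 genes were lower, with medians of -0.045 and -0.049. With a minimum change of 1.5-fold 3 were higher and 12 lower. The median of all genes of the set was -0.16 with library totals alone, -0.15 with an offset for effective length, and -0.25 to -0.20 with each library left out. The cause was not tested.

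By complex, both limma fits gave 0 lower for eIF1 and eIF1A, 1 for eIF2, 0 for eIF2B, 3 for eIF4F and 2 for the eIF4 partners. The 1.5-fold minimum gave 1 higher and 0 lower for eIF1 and eIF1A, 0 lower for eIF2, 0 higher and 0 lower for eIF2B, 0 higher and 5 lower for eIF3, 1 lower for eIF4F, 2 lower for the eIF4 partners, 0 higher for eIF5 to eIF6, 0 higher and 0 lower for eIF5A, 0 higher and 2 lower for eEF1, 0 lower for eEF2, and 1 higher for the enzymes. eIF2B had 2 higher with library totals, and 1 to 2 with each library left out. eIF4F had 1 higher without the filter on low counts and 1 with the effective length offset. eEF1 had 0 higher with DESeq2, and 0 to 1 with each library left out. For these too the cause was not tested.

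Signs turned as follows. With library totals alone EEF1B2 was at 0.0088, EIF4A3 at 0.0062, EIF4EBP1 at 0.0047 and EIF4E3 at 0.0029. With limma on log2(TPM + 1) and log2(TPM + 0.1), EIF4A3 was at 0.0092 and 0.0094, EIF4ENIF1 at 0.11 and 0.12, EIF4A2 at 0.19 and 0.20, EIF4E3 at 0.029 and 0.17, RPTOR at 0.025 and 0.028, and DHPS at 0.0155 and 0.0159. With the effective length offset EIF4ENIF1 was at 0.015, EIF4A2 at 0.091 and EIF4E3 at 0.28. EIF4EBP1 was at 0.0040 on protein_coding transcripts only. EIF5B was at -0.0015 with a minimum count of 50, where the median of eIF5A was 0.14. With each library left out, EIF4E3 lay between -0.29 and 0.16 (above 0 without treated replicate 6 and without control replicate 2) and EIF5B between -0.015 and 0.052 (below 0 without control replicate 2). The coding ratio of EIF4A2 was at 0.31 with decay targets counted as coding. In shares of estimated counts in place of TPM, EIF4G3 differed by -1.615 percentage points, and by 0.501 in TPM. Adding the counts of pseudogenes to their parent gene, an alternative chosen after seeing the data, changed no call among the 63 genes.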
